A study of Homo sapiens with 25 samples.

Results

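The genes described here are 8 genes of the YAP and TEAD pathway, LATS2, AJUBA, AMOTL2, YAP1, WWTR1, TEAD1, TEAD4 and ANKRD1, out of 19974 protein-coding genes. They were chosen by name, and their chromatin was read from every peak that overlapped the gene body or the 50 kb on either side of it. These 8 windows held 1978 of the 1257083 peaks in the 20 peak lists of the series.

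The data are chromatin immunoprecipitation sequencing (ChIP-seq) libraries from 4 established lines of human lung adenocarcinoma cells (HCC364, NCI-H441, NCI-H2087 and NCI-H358), all untreated and fixed with formaldehyde. NKX2-1 (the homeodomain lineage factor of lung epithelium), H3K27ac (a mark of active promoters and enhancers) and H3K4me1 (a mark of enhancers) were profiled in all 4 lines. NCI-H2087 had in addition c-Jun (a subunit of the AP-1 factor), the forkhead factors FOXA1 and FOXA2, the insulator protein CTCF, SOX2, RNA polymerase II, H3K4me3 (a mark of promoters) and the acetyltransferase EP300. Of the 25 samples, 20 had a peak list and 5 were input libraries, which were not analysed here. Each line and antibody is 1 library, so none of the differences below was checked in replicates and p-values are not given. Where 4 values are given for the lines, NCI-H2087 comes first, then NCI-H358, then NCI-H441 and last HCC364. A peak list shows where signal passed the caller's threshold in a bulk culture, and a mark in fewer cells cannot be told apart from a weaker mark per cell.

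The lists held between 7406 peaks (EP300) and 121789 peaks (HCC364 H3K4me1). The genome-wide background in the peak caller's values, which tracks relative depth, was lowest for c-Jun at 1.13 and EP300 at 1.52, and was between 2.52 and 4.19 in the other 18 libraries. A site without a c-Jun or EP300 peak therefore says less about absent binding than a site without a peak of another antibody. H3K27ac lay at the start of 4, 3, 4 and 4 of 4 lung adenocarcinoma markers (SFTPB lacked it in NCI-H358), and at all 3 epithelial markers in every line. Of 3 fibroblast markers COL1A1 alone was acetylated, in 4 lines, and of 2 blood markers CD3E alone was, in 3 lines. No endothelial marker was acetylated.

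In the Hippo pathway the kinases LATS1 and LATS2 phosphorylate the co-activators YAP1 and TAZ (the product of WWTR1), which keeps them in the cytoplasm or marks them for degradation. Unphosphorylated YAP1 and TAZ enter the nucleus and bind DNA through the TEAD factors, often at enhancers that also carry AP-1. Several target genes, among them ANKRD1, AMOTL2, AJUBA and LATS2, are themselves induced by YAP1, TAZ and TEAD, and AMOTL2, AJUBA and LATS2 act back on the pathway as regulators.

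Genome positions are on GRCh38 (hg38). LATS2 (gene ID 26524) lies at chr13:20973036-21061586, AJUBA (84962) at chr14:22971177-22982551 and AMOTL2 (51421) at chr3:134355345-134375417. YAP1 (10413) lies at chr11:102110447-102233424 and WWTR1 (25937) at chr3:149517235-149724788. TEAD1 (7003) lies at chr11:12674421-12944737, TEAD4 (7004) at chr12:2959397-3040676 and ANKRD1 (27063) at chr10:90912096-90921087. With the flanks the windows ran from 109.0 kb (ANKRD1) to 370.3 kb (TEAD1), so counts of peaks are read per line within a gene and not between genes.

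The promoter sequences of 6 of the 8 members were matched in the RefSeq table for GRCh38.p14, TEAD1 and TEAD4 being the exceptions. The 300 bases around each start (250 before and 50 after it) were searched on both strands for the TEAD core GGAATG and the AP-1 core TGANTCA. The forkhead core TGTTTAC and the NKX2-1 cores CTCAAG and TCAAGTG were searched in the same way. Over all 34961 promoters of the table, 14.0% held the TEAD core, 1.37% held it at least 2 times, 7.68% held the AP-1 core and 1.45% held both. Upstream of the start the TEAD core was found in ANKRD1, YAP1, AMOTL2 and AJUBA, whose 250 upstream bases are shown 5′ to 3′ because they hold the letters that TEAD and AP-1 are known to read. Capitals mark the TEAD core in either orientation and the AP-1 core.
ANKRD1, chr10:90921088-90921337, minus strand: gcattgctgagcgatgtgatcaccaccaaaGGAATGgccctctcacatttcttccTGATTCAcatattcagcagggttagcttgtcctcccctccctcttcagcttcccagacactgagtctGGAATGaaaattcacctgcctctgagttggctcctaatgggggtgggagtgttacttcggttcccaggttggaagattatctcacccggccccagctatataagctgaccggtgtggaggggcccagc
YAP1, chr11:102110197-102110446, plus strand: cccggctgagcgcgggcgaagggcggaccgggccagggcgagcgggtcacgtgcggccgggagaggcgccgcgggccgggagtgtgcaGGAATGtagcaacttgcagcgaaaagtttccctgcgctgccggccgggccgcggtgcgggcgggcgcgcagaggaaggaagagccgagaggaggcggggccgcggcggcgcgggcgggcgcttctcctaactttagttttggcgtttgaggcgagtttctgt
AMOTL2, chr3:134374448-134374697, minus strand: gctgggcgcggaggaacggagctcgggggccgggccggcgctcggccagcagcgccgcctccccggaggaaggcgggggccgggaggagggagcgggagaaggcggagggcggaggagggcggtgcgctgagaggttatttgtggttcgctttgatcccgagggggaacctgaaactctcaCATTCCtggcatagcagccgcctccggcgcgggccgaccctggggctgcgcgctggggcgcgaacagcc
AJUBA, chr14:22976843-22977092, minus strand: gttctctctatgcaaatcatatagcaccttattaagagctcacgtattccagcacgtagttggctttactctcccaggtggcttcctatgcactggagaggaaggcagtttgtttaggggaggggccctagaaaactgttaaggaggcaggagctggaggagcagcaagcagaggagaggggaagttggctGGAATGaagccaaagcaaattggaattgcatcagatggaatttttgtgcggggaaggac

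Among the members searched, ANKRD1 was the only one with more than 1 TEAD core and the only one with an AP-1 core. GGAATG began at positions -220 and -128 and TGATTCA at position -195, counted from the start. YAP1 held GGAATG at position -162 and AJUBA held it at position -59. AMOTL2 held CATTCC, the same core on the other strand, at position -69. AJUBA and AMOTL2 each have a further listed start, chr14:22982551 and chr3:134375417, where no TEAD core was found. In LATS2 the single TEAD core lay at position 10 after the start. Neither WWTR1 start had one, and the WWTR1 start at chr3:149703273 held a forkhead core, TGTTTAC on the other strand, at position -53. The forkhead core is present in 3.42% of promoters. An NKX2-1 core, CTCAAG, was found in LATS2 alone among the members searched, at position -221, and 13.9% of promoters hold one. A match is a stretch of letters and not a bound site.

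Peaks lay near nearly every member, as they did near most genes. NKX2-1 had at least 1 peak in the window of 8, 7, 8 and 8 of 8 members, against 92.9%, 90.4%, 93.3% and 94.8% of all genes, ANKRD1 in NCI-H358 being the exception. H3K27ac was present near all 8 members in every line, against 87.6%, 85.9%, 86.4% and 87.2% of genes, and H3K4me1 likewise, against 89.3%, 89.5%, 90.9% and 91.3%. These shares do not separate the members from other genes, and the number, length and place of the peaks are given below. A share of genes with at least 1 peak depends on window length, which was not matched here or below.

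Among the regulators, LATS2, the kinase that inhibits YAP1 and TAZ, had 7, 10, 8 and 7 NKX2-1 peaks in the 4 lines. H3K27ac covered 9.60, 8.57, 5.05 and 11.7 kb of its window in the same order of lines, and H3K4me1 covered 9.34, 10.9, 11.3 and 13.3 kb. NKX2-1 was thus spread evenly over the lines at LATS2, and acetylation was lowest in NCI-H441 and highest in HCC364. The strongest region bound by NKX2-1 in all 4 lines was chr13:21016993-21017971 in the gene body, 44.1 kb from the start, with folds over background of 33.7, 39.4, 24.5 and 41.6. Folds are the peak caller's values and rank peaks within a list. This region was acetylated in 4 lines, and it carried the strongest c-Jun peak of LATS2.

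AJUBA encodes a LIM-domain scaffold that binds and restrains the LATS kinases. It had 12 NKX2-1 peaks in each of the 4 lines, and H3K27ac covered 16.7, 16.0, 16.3 and 16.5 kb. H3K4me1 covered 14.2, 17.5, 18.2 and 11.4 kb. For H3K27ac AJUBA varied least between lines of the 8 members, with a ratio of the highest to the lowest length of 1.05. For H3K4me1 the ratio was 1.59, above the 1.42 of LATS2, and for the length under NKX2-1 it was 1.41, above the 1.28 of LATS2 and the 1.35 of YAP1. A single H3K27ac peak of 7.44, 7.56, 7.74 and 8.87 kb ran across both AJUBA starts in the 4 lines. Its window also holds acetylated starts of PRMT5, HAUS4 and C14orf93 (1 of its 2 listed starts) in 4 lines, and without the peaks at these starts H3K27ac covered 11.6, 11.1, 10.5 and 10.8 kb.

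AMOTL2 encodes an angiomotin-like protein that holds YAP1 at cell junctions and in the cytoplasm. It had 14, 6, 23 and 17 NKX2-1 peaks, and H3K27ac covered 21.6, 10.1, 33.1 and 40.4 kb. H3K4me1 covered 23.8, 21.6, 39.7 and 45.9 kb. NCI-H358 was lowest on all 3 measures, and the acetylated length in HCC364 was 4.02 times that in NCI-H358, against 1.28 times for the whole lists. In HCC364 a single acetylated domain of 22.4 kb, chr3:134353840-134376241, spanned the whole gene, while the peak at the start was 2.91 kb wide in NCI-H358. The strongest NKX2-1 region shared by 4 lines lay inside the gene, 16.2 kb from the nearer start, at chr3:134357570-134358954, with folds of 29.1, 18.3, 24.6 and 44.8.

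Of the co-activators, YAP1 had 17, 21, 23 and 22 NKX2-1 peaks, and H3K27ac covered 28, 24.6, 32.8 and 43.4 kb. H3K4me1 covered 37.2, 48.9, 48.6 and 68.3 kb. NKX2-1 was alike in the 4 lines, with 1.35 times between the highest and lowest covered length, and both marks were longest in HCC364. The acetylated domain over the YAP1 start was 12.0 kb wide in NCI-H2087 and 14.9 kb in HCC364, and 4.68 kb in NCI-H358. The strongest NKX2-1 region shared by 4 lines, chr11:102238295-102239172, lay beyond the end of the gene, 128.3 kb from the start. Its folds were 37.6, 20.8, 53.9 and 76.2, the last above 99.5% of the HCC364 list, and H3K27ac was present there in 3 lines, all but NCI-H358.

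WWTR1, the gene of TAZ, had 25, 21, 31 and 44 NKX2-1 peaks, and H3K27ac covered 69.4, 43.1, 40.7 and 110.4 kb. H3K4me1 covered 91.8, 70.7, 76.8 and 134.4 kb. HCC364 was highest on all 3 measures and NCI-H2087 was next for both marks. As a share of the window, H3K27ac covered 22.6%, 14.0%, 13.2% and 35.9%, which is more than in 99%, 91%, 91% and 99% of all genes in the same line. A domain inside the gene and far from both starts carried the widest H3K27ac peak of WWTR1 in every line, 17.7, 16.0, 11.1 and 23.4 kb wide. In HCC364 it was chr3:149568156-149591590. Of the 49 NKX2-1 regions near WWTR1, 16 were bound in 1 line and 12 of those in HCC364.

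**Figure D1:**
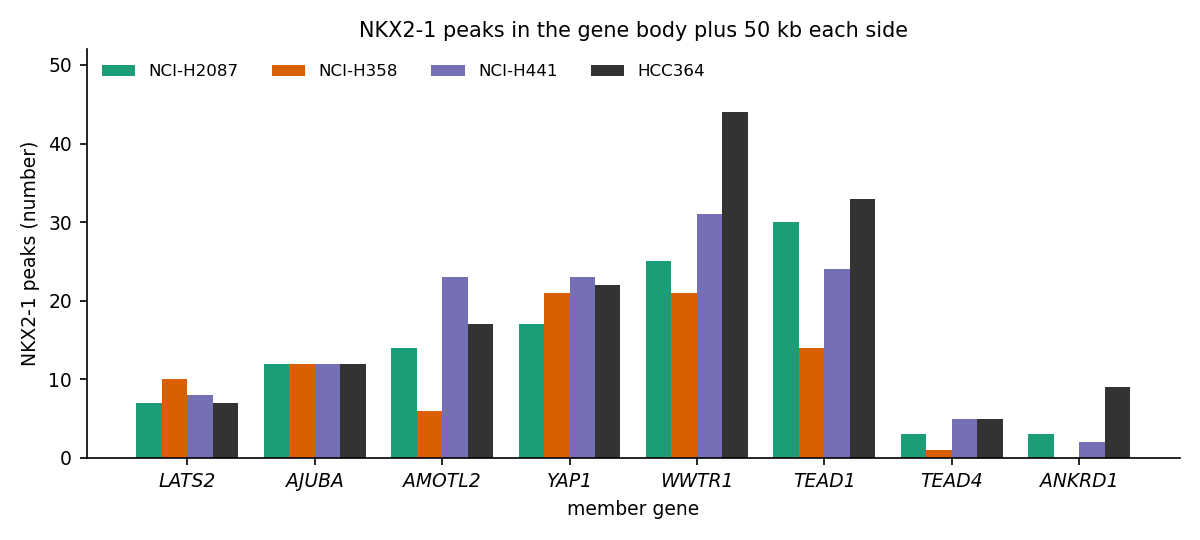
Number of NKX2-1 peaks (vertical axis) overlapping the gene body or the 50 kb on either side of each member (horizontal axis), 1 bar per cell line, 1 library each. WWTR1 has 44 peaks in HCC364 and 21 in NCI-H358, AJUBA has 12 in every line, and ANKRD1 has none in NCI-H358.

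TEAD1 and TEAD4 are 2 of the DNA-binding partners of YAP1 and TAZ. TEAD1 had 30, 14, 24 and 33 NKX2-1 peaks, and H3K27ac covered 56.8, 33.8, 27.4 and 66.8 kb. H3K4me1 covered 85.5, 56.6, 59.5 and 118.5 kb. Both marks were higher in NCI-H2087 and HCC364 than in NCI-H358 and NCI-H441. The widest H3K27ac peak measured 9.93, 8.05, 6.93 and 12.6 kb, and it overlapped between NCI-H2087, NCI-H358 and NCI-H441, while in HCC364 it lay nearer to the start.

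TEAD4 had 3, 1, 5 and 5 NKX2-1 peaks, and H3K27ac covered 5.26, 0.415, 4.03 and 6.65 kb. H3K4me1 covered 2.81, 0.504, 5.45 and 5.87 kb. NCI-H358 was lowest, and its single H3K27ac peak of 0.415 kb lay at the TEAD4 start. The acetylated share of the TEAD4 window was above that of 42%, 15%, 38% and 44% of genes, in contrast to TEAD1 at 94%, 81%, 75% and 90%. The one NKX2-1 region bound in 4 lines, chr12:2960161-2961511, lay 1.44 kb from the start, with folds of 25.5, 15.0, 39.7 and 45.2.

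ANKRD1, a muscle ankyrin-repeat protein gene used widely as a readout of YAP1 and TAZ, differed most between lines. It had 3 NKX2-1 peaks in NCI-H2087, 2 in NCI-H441, 9 in HCC364 and none in NCI-H358. H3K27ac covered 5.69, 0.487, 0.655 and 9.10 kb, and H3K4me1 covered 6.18, 0.460, 3.91 and 14.0 kb. The acetylated lengths in NCI-H358 and NCI-H441 were single peaks at the start of the neighbouring gene RPP30, 49.1 kb from the ANKRD1 start. Without the peaks at that start H3K27ac covered 4.84 kb in NCI-H2087 and 7.67 kb in HCC364, and NCI-H358 and NCI-H441 had no H3K27ac peak in the window.

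**Figure D2:**
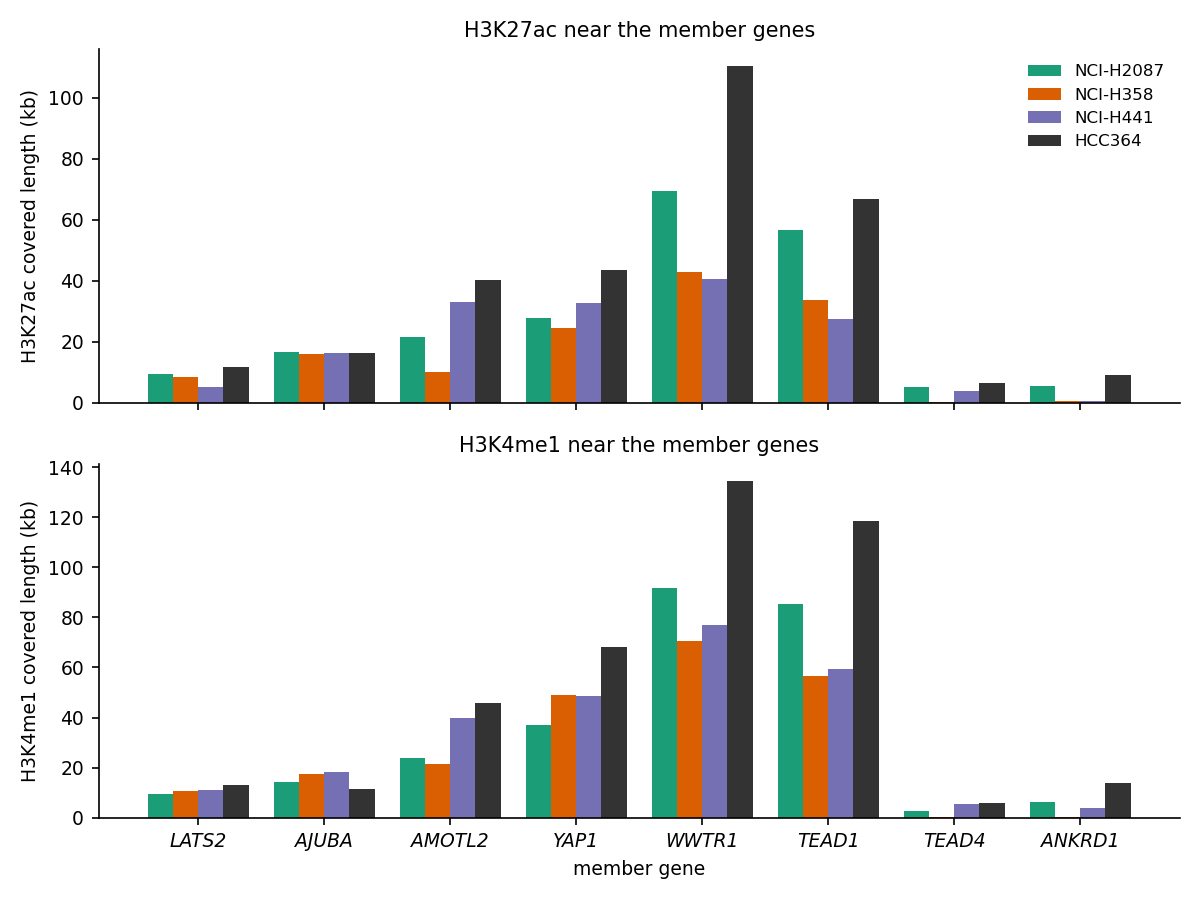
Length covered by H3K27ac peaks (upper panel) and H3K4me1 peaks (lower panel) in the window of each member, in kb, 1 bar per cell line, 1 library each. HCC364 has the longest H3K27ac in 7 of 8 members, AJUBA being the exception.

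Over the 8 windows NKX2-1 had 111, 85, 128 and 149 peaks. H3K27ac covered 212.9, 137.0, 160.0 and 304.9 kb and H3K4me1 covered 270.8, 227.1, 263.4 and 411.7 kb. HCC364 was highest on all 3 measures. Its acetylated length was 1.79 times the mean of the other 3 lines near the members, against 1.29 times over the whole lists, and its H3K4me1 length was 1.62 times, against 1.23. For NKX2-1 the ratio of peak numbers was 1.38, against 1.08. These ratios pool windows of unequal length, and WWTR1 alone held 110.4 of the 304.9 kb of H3K27ac in HCC364. By member, without peaks at starts of other genes, the H3K27ac ratio ran from 0.980 at AJUBA to 4.75 at ANKRD1. Restricting every list to its 20000 strongest peaks left 30, 20, 27 and 27 NKX2-1 peaks, so that NCI-H2087 and not HCC364 had the most, and a ratio of 1.05, while the H3K27ac ratio under the same limit was 1.86.

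Counted by gene, H3K27ac length was highest in HCC364 in 7 of 8 members, where 46.2% of all genes had their highest length in that line. The highest line exceeded the lowest by at least 2 times in 6 of 8 members, against 58.8% of all genes, a share near the background. For H3K4me1 HCC364 was highest in 7 of 8 members (36.4% of genes) and the difference of at least 2 times was met in 4 of 8 (69.4% of genes). For NKX2-1 the covered length was highest in HCC364 in 4 of 8 members (30.0% of genes) and differed by at least 2 times in 4 of 8 (60.4% of genes). NCI-H358 had the lowest H3K27ac length in 5 of 8 members and NCI-H441 in the other 3. Their whole H3K27ac lists were also the shortest, 74.4 and 70.0 Mb, against 76.2 Mb in NCI-H2087 and 94.9 Mb in HCC364. The share of all genes lowest in these lines was not counted.

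The windows were rich in the marks in every line. The median share of the window under H3K27ac was 13.8%, 8.75%, 10.3% and 16.4% over the members, against 3.8%, 3.43%, 3.41% and 4.65% over all genes. The medians for H3K4me1 were 14.7%, 15.5%, 16.2% and 21.8%, against 4.43%, 4.77%, 5.74% and 5.54%. TEAD4 lay below the gene median for H3K27ac in all 4 lines, and LATS2 and ANKRD1 did so in NCI-H441 alone and in NCI-H358 and NCI-H441, respectively.

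Local background of the libraries, which may follow DNA copy level, moved with some of these values and not with others. Whether inputs served as controls is not known, so it may also hold ChIP signal of the same library. Values are relative to the library median and are the median over the NKX2-1, H3K27ac and H3K4me1 libraries of a line. Local background was 1.43, 1.24, 1.17 and 1.32 around YAP1 in the 4 lines. It was 1.27, 0.920, 1.24 and 1.08 around WWTR1, 1.02, 0.790, 0.809 and 1.03 around TEAD1 and 0.985, 0.790, 0.894 and 1.10 around ANKRD1. AJUBA had 1.52, 1.28, 1.28 and 0.810, and AMOTL2 had 1.14, 0.793, 1.06 and 0.909. LATS2 had 0.775, 0.864, 0.833 and 0.810, and TEAD4 had 0.721, 0.790, 0.90 and 0.909. TEAD1 and ANKRD1 thus had both a lower background and shorter acetylation in NCI-H358 and NCI-H441. At AJUBA the background was lowest in HCC364, 0.810 against 1.52 in NCI-H2087, and acetylation was of like length in both. At TEAD4 the background over the libraries overlapped between NCI-H2087, 0.709 to 0.793, and NCI-H358, 0.730 to 0.793. The acetylated length there was greater in NCI-H2087. In NCI-H358 the H3K27ac background was 0.790 and the H3K4me1 background 0.793 at each of TEAD1, TEAD4 and ANKRD1. LATS2 and AJUBA likewise shared 0.810 and 0.837 in HCC364. Equal values at different genes may be the lowest that the caller gives, so a lower level could not be seen there. The part of background in the differences between lines was not tested.

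Merging the NKX2-1 peaks of the 4 lines gave 199 regions in the windows. Of these 50 were bound in 4 lines (25.1%, 95% exact interval 19.3% to 31.7%, counting error only), 35 in 3, 40 in 2 and 74 in 1. Over the genome 22.3% of 145799 regions were bound in 4 lines, inside that interval. A region bound in 4 lines lay near 7 of 8 members, against 80.5% of all genes. LATS2 had 6 of 11 regions in 4 lines, YAP1 11 of 30, WWTR1 15 of 49, AJUBA 5 of 19, AMOTL2 4 of 24, TEAD1 8 of 48, TEAD4 1 of 7 and ANKRD1 0 of 11. Of the 74 regions bound in 1 line, 39 were bound in HCC364 (52.7%, against 34.8% over the genome).

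**Figure D3:**
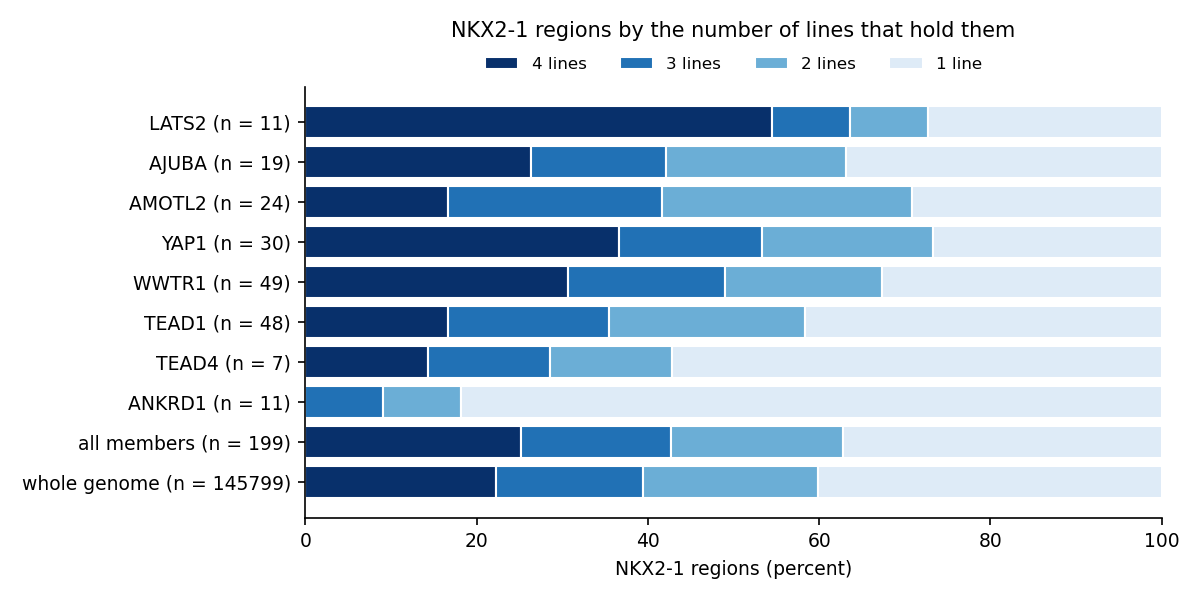
Share of merged NKX2-1 regions (horizontal axis, percent) bound in 4, 3, 2 or 1 of the 4 lines, for each member, all members together and the whole genome, with the number of regions in brackets. The share in 4 lines runs from 0 at ANKRD1 to 54.5% at LATS2, and that of all members, 25.1%, is close to the 22.3% of the genome.

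At regions bound in 1 to 3 lines, both marks were more frequent in the lines with NKX2-1. H3K27ac was present in 67.6% of the cases where a line bound NKX2-1 (175 of 259) and in 26.4% of the cases where it did not (89 of 337). H3K4me1 was present in 80.7% and 43.6%. The same held over the genome at lower levels, 39.0% and 11.6% for H3K27ac and 63.4% and 23.6% for H3K4me1. Within the lines the H3K27ac shares with and without NKX2-1 were 70.2% and 31.5% in NCI-H2087, 54.5% and 19.8% in NCI-H358, 58.1% and 22.7% in NCI-H441, and 77.9% and 37.0% in HCC364. Regions bound in 4 lines were acetylated in 86.0% to 92.0% of cases in each line. Cases share regions and windows, so they are not independent.

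The starts of 7 of 8 members were acetylated in all 4 lines, against 50% of all genes, with a peak within 1 kb of a start. ANKRD1 was the exception: its start had an H3K27ac peak in NCI-H2087 (fold 18.0) and HCC364 (fold 12.3) and none in NCI-H358 and NCI-H441. NKX2-1 lay at 6 of 8 starts in NCI-H2087, against 45.8% of all genes, the starts of LATS2 and TEAD1 being without it. In the same line all 8 starts had H3K4me3 (66.8% of genes) and RNA polymerase II (54.2% of genes). The H3K4me3 fold was 183.3 at YAP1, 164.5 at AMOTL2, 149.5 at WWTR1, 88.9 at TEAD1, 85.0 at AJUBA, 54.7 at TEAD4, 48.0 at LATS2 and 3.16 at ANKRD1. The ANKRD1 peak was thus far below the others, and 0.418% of the H3K4me3 list had a lower fold. At AJUBA the H3K4me3 peak lay at the start chr14:22982551, and the start with the TEAD core, chr14:22976842, had none within 1 kb. For TEAD1 and TEAD4 either gene end counted as a start, and in both the marks lay at the lower coordinate.

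Among the starts of the members, that of ANKRD1 had the highest folds of c-Jun, FOXA1, FOXA2 and EP300, while NKX2-1 had its highest fold in NCI-H2087, 25.5, at TEAD4. The H3K27ac peak at the ANKRD1 start in NCI-H2087 lay over NKX2-1 (fold 19.0), FOXA1 (fold 86.9), FOXA2 (fold 86.6), EP300 (fold 6.06) and c-Jun (fold 32.5). NKX2-1 bound the same region, chr10:90920976-90921843, in NCI-H441 (fold 15.6) and HCC364 (fold 24.8) and had no peak there in NCI-H358. NCI-H441 therefore had NKX2-1 and H3K4me1 (fold 6.56) at the start without H3K27ac. H3K4me1 at the start had folds of 5.50 in NCI-H2087 and 5.04 in HCC364 and no peak in NCI-H358.

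c-Jun, the AP-1 subunit profiled in NCI-H2087, had 36 peaks in the 8 windows, 2.16 times the density over the windows of all genes. The excess was not particular to c-Jun. Per 100 kb in the same line, SOX2 had 0.869 peaks against 0.337 over all genes and EP300 0.931 against 0.446. NKX2-1 had 6.89 against 3.84 and H3K27ac 7.63 against 3.11, while H3K4me3 had 1.80 against 1.76. Every member had at least 1 c-Jun peak, against 65.7% of all genes. TEAD1 had 10, WWTR1 8, YAP1 7, AMOTL2 4, LATS2 3, AJUBA 2, and TEAD4 and ANKRD1 1 each. The peaks were numerous more than strong: their median fold was 7.96, against 9.59 over the whole list of 23360 peaks, and 13 of 36 were above the list median. A c-Jun peak lay within 1 kb of a start in 3 of 8 members, AJUBA, WWTR1 and ANKRD1, against 5.50% of all genes, and 21 of 36 summits lay in the body of the member gene.

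The strongest c-Jun peak was that of ANKRD1, chr10:90921023-90921804, with a fold of 32.5, rank 237 in the list and above 99.0% of c-Jun peaks. Its summit was 252 bp upstream of the start. Of the cores shown above, TGATTCA spans chr10:90921276-90921282 and the TEAD cores chr10:90921302-90921307 and chr10:90921210-90921215, all inside the peak. The strongest c-Jun peak of TEAD1 had a fold of 22.1 at chr11:12693505-12694102, in the gene body 19.4 kb from the start, and lay inside the widest H3K27ac peak of NCI-H2087 there. That of YAP1 had a fold of 20.2 at chr11:102178056-102178791, 68.0 kb inside the gene. The highest folds of the other members were 16.3 at LATS2, 15.5 at AJUBA, 15.2 at WWTR1, 9.60 at TEAD4 and 8.25 at AMOTL2.

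**Figure D4:**
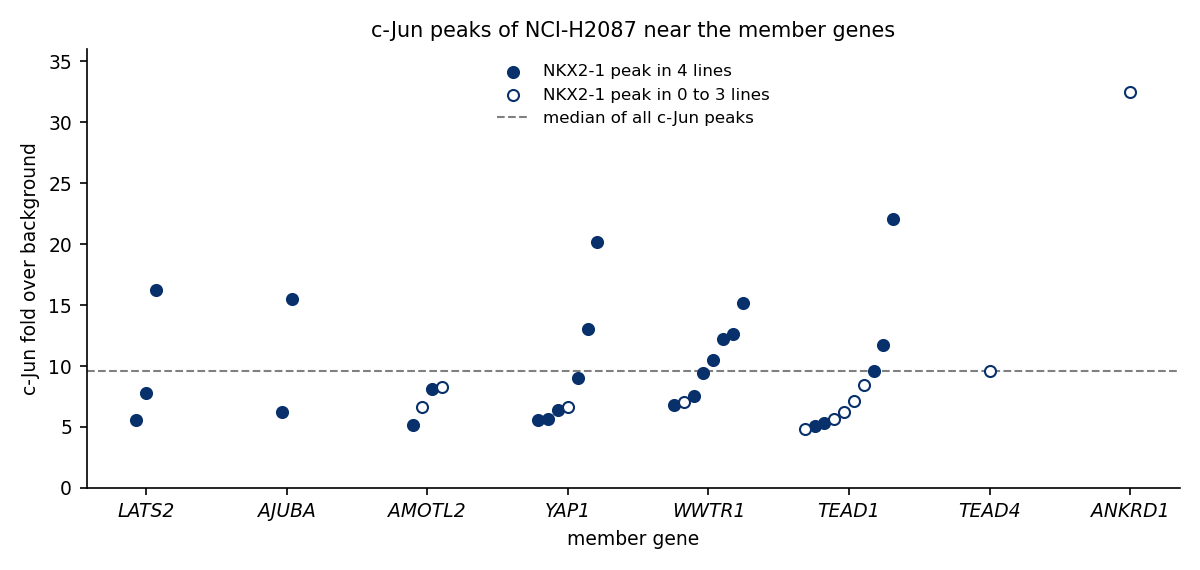
Fold over background (vertical axis) of each of the 36 c-Jun peaks of NCI-H2087 near the members (horizontal axis), 1 point per peak. Filled points overlap an NKX2-1 peak in each of the 4 lines, open points do not, and the dashed line is the median of all c-Jun peaks, 9.59. The ANKRD1 peak, at 32.5, is the highest and overlaps NKX2-1 in 3 lines.

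Of the 36 c-Jun peaks, 34 overlapped an NKX2-1 peak of NCI-H2087 (94.4%, interval 81.3% to 99.3%), and 91.3% of all c-Jun peaks did. FOXA1 overlapped 32 (88.9%, interval 73.9% to 96.9%), above the 72.6% of the whole list, and H3K27ac overlapped 32 (88.9%, the same interval), above 70.8%. FOXA2 overlapped 29 (80.6%, against 74.3%), EP300 11 (30.6%, against 18.3%), SOX2 7 (19.4%, against 21.5%), H3K4me1 27 (75.0%, against 80.4%) and CTCF 2 (5.56%, against 11.9%). For FOXA2, EP300, SOX2, H3K4me1, CTCF and NKX2-1 the whole-list share lay inside the interval of the members. Neighbouring c-Jun peaks often share one broad H3K27ac peak and are not independent. The richness of the windows in H3K27ac was not matched in these shares.

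c-Jun was analysed here in NCI-H2087 alone, and its sites there were compared with the peaks of all 4 lines. Of the 36 c-Jun peaks, 25 overlapped an NKX2-1 peak in each of the 4 lines (69.4%, interval 51.9% to 83.7%), against 61.9% of all c-Jun peaks, which lies inside that interval. H3K27ac peaks of all 4 lines overlapped 22 (61.1%, interval 43.5% to 76.9%), above the 38.3% of the whole list. The intervals take the peaks as independent, and neighbouring c-Jun peaks often share one H3K27ac peak. The windows were also rich in H3K27ac in every line, and the shares were not matched for this. NKX2-1 and H3K27ac were both present in 4 lines at 20 (55.6%, interval 38.1% to 72.1%), above 34.1%. These 20 fell in 19 NKX2-1 regions: WWTR1 had 6, LATS2, YAP1 and TEAD1 3 each, AJUBA and AMOTL2 2 each, and TEAD4 and ANKRD1 none. Some lay at other genes of the window. The WWTR1 region chr3:149473412-149474444 lay beside the start of TM4SF4, 184.1 kb from the nearest WWTR1 start. The AJUBA region chr14:23006511-23007502 lay in the body of C14orf93. The WWTR1 regions include 4 inside its widest acetylated domain in NCI-H2087, NCI-H358 and HCC364, and 1 at the start. The outermost of the 4 are chr3:149575150-149576720 and chr3:149586710-149587315, the latter outside that domain in NCI-H441. The single peak that overlapped no NKX2-1 peak of any line was chr11:102079691-102080129, 30.6 kb upstream of YAP1, and it had no other factor or mark in NCI-H2087.

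Across the other NCI-H2087 factors, FOXA1 had 91 peaks in the windows and FOXA2 102, or 5.65 and 6.33 per 100 kb, against 2.81 and 3.32 over all genes. Both had peaks near all 8 members (89.7% and 91.9% of genes). Per 100 kb FOXA1 ran from 1.65 peaks at TEAD4 and 2.75 at ANKRD1 to 7.15 at WWTR1 and 7.50 at AMOTL2, and FOXA2 from 1.65 at TEAD4 and 3.67 at ANKRD1 to 8.10 at TEAD1 and 8.13 at WWTR1. EP300 had 15 peaks, 6 of them near WWTR1, and lay near 7 of 8 members (44.1% of genes), LATS2 being the one without. The EP300 peak in the AJUBA window, chr14:22929219-22929693, lay at the start of PRMT5. SOX2 had 14 peaks near 4 of 8 members (32.6% of genes), with 5 at WWTR1, 5 at TEAD1, 2 at YAP1 and 2 at TEAD4. No SOX2 peak lay near LATS2, AJUBA, AMOTL2 or ANKRD1. CTCF had 62 peaks and 3.85 per 100 kb, close to the 3.30 over all genes, and lay near all 8 members (96.6% of genes). RNA polymerase II and H3K4me3 also had peaks near all 8 members (79.8% and 87.7% of genes). EP300 lay within 1 kb of the start of 2 of 8 members, WWTR1 and ANKRD1 (13.6% of genes).

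Merging NKX2-1, c-Jun, FOXA1, FOXA2, SOX2 and EP300 gave 153 regions near the members, of which 12 held at least 5 of the 6 factors (7.84%, against 5.84% of regions over the genome). They lay near 5 of 8 members, against 28.2% of all genes: WWTR1 had 5, TEAD1 3, YAP1 2, and TEAD4 and ANKRD1 1 each. WWTR1, TEAD1 and YAP1 had the longest windows of the members (307.6, 370.3 and 223.0 kb), and the share of all genes was not matched for length. All 6 factors were present in 7 of them. At TEAD1 these were chr11:12693224-12694684, chr11:12723174-12725201 and chr11:12801858-12803393, all in the gene body and bound by NKX2-1 and acetylated in 4 lines. At YAP1 the region was chr11:102177691-102178855, and at WWTR1 the regions were chr3:149575446-149576740 and chr3:149579247-149580731, also bound and acetylated in 4 lines. The TEAD4 region, chr12:2912826-2913490, lay 46.2 kb from the TEAD4 start and was bound and acetylated in NCI-H2087 and NCI-H441 only. It was the site of the single c-Jun peak near TEAD4.

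**Figure D5:**
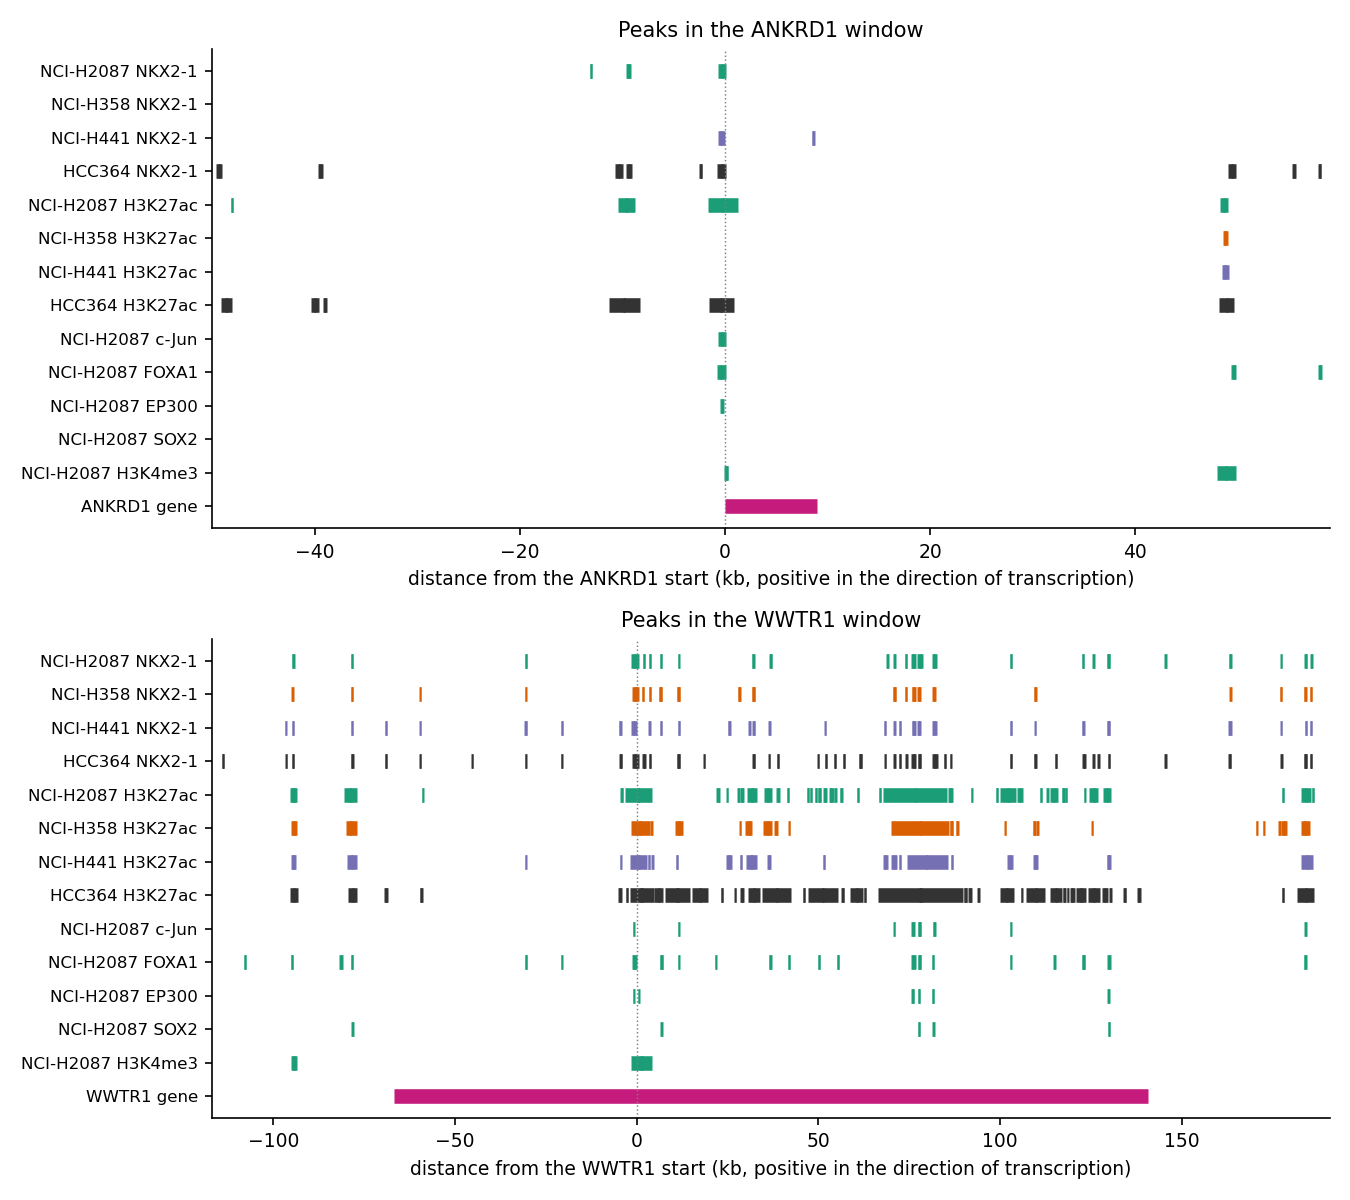
Peaks in the windows of ANKRD1 (upper panel) and WWTR1 (lower panel) by distance from the start in kb, 1 row per peak list, with the gene as the bottom bar. Narrow peaks are drawn at a minimum width so that they can be seen. At ANKRD1 NKX2-1, c-Jun, FOXA1 and EP300 meet at the start and H3K27ac is present there in NCI-H2087 and HCC364, and at WWTR1 H3K27ac fills the widest stretch in HCC364, 23.4 kb.

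Among other genes of the pathway, 40 were listed in 3 groups. Of 16 upstream kinases and regulators, 13 had a c-Jun peak in the window, 14 an NKX2-1 region bound in 4 lines and 11 an acetylated start in 4 lines, against 65.7%, 80.5% and 50% of all genes. The count for NKX2-1 is near that background. AMOTL1 (an angiomotin relative of AMOTL2), FRMD6 (a cortical activator of the kinases) and PTPN14 (a phosphatase that binds YAP1) had 10 c-Jun peaks each, in windows of unequal length. FRMD6 had 13 NKX2-1 regions bound in 4 lines, PTPN14 12 and STK3, an upstream kinase, 10. The median c-Jun density of this group was 0.973 peaks per 100 kb, against 0.840 over all genes and 2.2 over the 8 members. At the starts used here FRMD6 was acetylated in 0 of 4 lines and AMOTL1 in 1, while PTPN14 was acetylated in 4. A start missing from the promoter table would not be seen, and H3K27ac covered 18.2, 14.2, 14.9 and 16.8 kb of the FRMD6 window.

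The 6 further TEAD and VGLL genes had few peaks, with a median of 0 c-Jun peaks. Of these, 2 had a c-Jun peak (65.7% of all genes), VGLL4 with 4 and TEAD3 with 1. An NKX2-1 region bound in 4 lines lay near 3 of them (80.5% of genes). In 1, VGLL4, the start was acetylated in 4 lines (50% of genes). VGLL4, which competes with YAP1 for TEAD factors, had 4 NKX2-1 regions bound in 4 lines, TEAD2 2 and VGLL3 1. Among the TEAD genes c-Jun thus had 10 peaks in the long window of TEAD1, 1 at TEAD4, 1 at TEAD3 and none at TEAD2.

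All 18 listed targets had a c-Jun peak and all 18 had an NKX2-1 region bound in 4 lines, against 65.7% and 80.5% of all genes. An acetylated start in 4 lines was found in 13, against 50% of all genes. The median c-Jun density of the 18 targets was 2.37 per 100 kb. AXL (0.702), DOCK5 (0.604) and RBMS3 (0.603, in a window of 829.3 kb) were below the 0.840 of all genes, and the other targets were above it. TGFB2 (a TGF-beta ligand) and ASAP1 had 9 c-Jun peaks each and MYOF 8, and GADD45A had 15 NKX2-1 regions bound in 4 lines, MYOF 12 and ASAP1 11. Among the classical targets, picked out after their values were seen, CCN1 had 7 c-Jun peaks in 103.2 kb and an acetylated start in 4 lines, and CCN2 had 4 and an acetylated start in 2 lines.

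The profiles of the members over the 12 values of 3 antibodies and 4 lines (covered share of the window on the log2 scale after adding 0.001, centred within each antibody) were compared by Pearson correlation. The values share libraries, so r is a description. ANKRD1 and TEAD1 were most alike (r = 0.925), followed by TEAD1 and WWTR1 (r = 0.869) and ANKRD1 and WWTR1 (r = 0.840). AJUBA ran against ANKRD1 (r = -0.566) and TEAD1 (r = -0.557). Over all genes at least 1 Mb away, the most alike were RAB11FIP5 and SEC61A1 for ANKRD1 (r = 0.987 and 0.982), PRTFDC1 and HDC for WWTR1 (0.987 and 0.983), and GPR171 and PDHX for TEAD1 (0.982 and 0.975). For YAP1 they were LOC105377015 and TGFBR2 (0.982 and 0.980), for AMOTL2 ZNHIT3 and MYO19 (0.976 and 0.975), and for TEAD4 LOC107984956 and CRYBB1 (0.989 and 0.983). For AJUBA they were GCNT2 and PEX39 (0.979 and 0.974), and for LATS2 OGFOD2 and ARL6IP4 (0.964 and 0.957). For each member these r were higher than with any other member. They are the best of a search over 19974 protein-coding genes, against only the few other members. A higher best r outside the list is therefore given by the size of the search and says nothing about the members.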

How the data were processed

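ChIP-seq peak lists of 20 libraries were analysed, grouped by the cell line and antibody in the sample titles, with 1 library a group. The submitters' processing notes name MACS2 in versions 2.1.1 and 2.2.7.1, SAMtools 1.9, Trimmomatic 0.36, bedtools and Bowtie2 2.2.9, and the build hg38 (GRCh38). The role of each tool and whether the inputs served as controls are not given in the sources used here. There is 1 deposited list per library, in narrowPeak format. They give for each peak the fold over local background at the summit, a linear ratio, the caller's −log10 p and −log10 q, and how far the summit lies from the start of its peak. The lowest −log10 q lay just above 3 in every deposited list, from which the threshold was read. Total read numbers are not given in these lists.

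Peaks on chromosomes 1 to 22 and X were used. A peak belonged to a gene when it overlapped the gene body of RefSeq GRCh38.p14 or 50 kb on either side by at least 1 bp, and all 19974 protein-coding genes were processed alike as the background. Starts came from the RefSeq promoter table, which had 79.2% of genes and 6 of the 8 members. Elsewhere either gene end was used. NKX2-1 regions are peaks of the 4 lines merged at 1 bp, and a line counts as bound when one of its peaks overlaps the region. Local background was solved from the deposited fold and −log10 p of peaks with −log10 p below 300 and taken as the median over peaks within 1 Mb of a gene, relative to the median of the library. Intervals are exact Clopper-Pearson at 95%. No test was run, since no group is replicated. The scripts were tested on simulated data (Python 3.11.15, pandas 2.3.3, numpy 2.4.6, scipy 1.17.1).

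The members, gene lists and comparisons were chosen with earlier results of these data known. The rule for named features takes all members, for each the strongest c-Jun peak, the NKX2-1 region of 4 lines with the highest mean percentile of fold and the widest H3K27ac peak per line, the regions with NKX2-1 and H3K27ac in 4 lines and c-Jun, the 3 leading genes of each pathway list, and the 2 genes most alike.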

Additional observations from a re-analysis of the deposited data

How the results depend on the processing

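The results were recomputed with windows of 10 kb and 100 kb, a −log10 q of at least 5, at most the 20000 strongest peaks of a list, and summits in place of peak overlap (shared within 200 bp), and for starts with 5 kb. Of 39 such values 35 stayed on the same side and within 1.5 times (shares: within the interval) of the value reported, and none reversed. HCC364 over the mean of the other lines ranged from 1.76 to 1.88 for H3K27ac, from 1.61 to 1.76 for H3K4me1 and from 1.05 to 1.51 for NKX2-1. The ratio of 1.05 came with the 20000 strongest peaks, where NCI-H2087 had the most NKX2-1 peaks (30) and HCC364 had 27. Leaving out H3K27ac peaks at starts of other genes, chosen after seeing the data, gave 1.83. The share of NKX2-1 regions bound in 4 lines was 18.1% by summits (18.0% over the genome). The share of c-Jun peaks with NKX2-1 was 100% in windows of 10 kb, 51.9% with the 20000 strongest peaks (53.9% of all c-Jun peaks) and 77.8% by summits (80.6%). H3K27ac lay at the starts of 5 to 7 members in 4 lines, c-Jun density was 1.76 to 2.82 times that of all genes, and 4 to 7 members had a region with at least 5 of 6 factors. No paired analysis was possible because each group is 1 library. Total read depth is unknown, so absent peaks, above all of c-Jun and EP300, cannot be called absent binding.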
